A study of Homo sapiens with 2 samples.

Results

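The genes of glycolysis and of the hypoxia response were read in A549 cells, a human lung adenocarcinoma line, kept in spheroid culture and in monolayer culture. The list was set by name and role and held 43 genes, 25 of the glycolytic path and its control and 18 of the hypoxia response. Of these, 40 had a probe set that the array annotation ties to that gene alone, out of 19775 such genes in all. CA9, SLC16A1 and SLC16A3 had none and were not analysed here. Spheroid cells grew unattached for 12 days in DMEM/F12 without serum, with N2 supplement, bFGF at 10 and EGF at 20 ng/ml. Monolayer cells grew attached for 12 days in DMEM with 10% FBS. The effects of attachment, of serum, of the base medium and of the added factors cannot be told apart in this design. Each culture was measured on 1 Affymetrix U133 array, so no difference given here has a replicate check and no p-value was computed.

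Glycolysis splits glucose into pyruvate, which is turned into lactate or enters the mitochondria. Several of its steps have alternative isoforms encoded by different genes. Hypoxia-inducible factor (HIF) pairs an oxygen-regulated alpha subunit with ARNT. In oxygenated cells prolyl hydroxylases of the EGLN family mark the alpha subunit for degradation, and in low oxygen the pair binds DNA and activates glucose transporters, glycolytic enzymes, VEGFA and mitophagy receptors. Control of the alpha subunits is mainly at the protein level, which arrays do not measure. Oxygen levels of the cultures were not used here.

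Values are deposited signals on a linear scale, already brought by the authors to 1 trimmed mean per array (500.1 on both). Signals below the array's median, 119 in spheroid and 108 in monolayer culture, count as at the floor and were raised to it for the ratio, and a ratio with 1 culture at the floor is a lower bound ("at least"). A gene was read from its brightest probe set. The only spread these arrays give is between probe sets of 1 gene on the same RNA. Where a gene had several probe sets over the floor (5453 genes), the log2 ratios of the brightest pair differed with an SD of 0.50, and with an SD of 0.32 over 1501 genes where both were bright. A signal comes from the bulk culture, where fewer expressing cells and less RNA per cell cannot be told apart. Of 14 markers of lung epithelial or A549 cells, 13 were above the floor in spheroid and 11 in monolayer culture, while NKX2-1 was below it in both. Of 7 hepatoma markers, listed because the submitters' description names such a line, and treatment with a compound, for both samples, 6 were above the floor in spheroid and 3 in monolayer culture, with summed signals of 7005 in spheroid and 1367 in monolayer culture. ALB made up most of the spheroid sum, with 4639 in spheroid and 23.4 in monolayer culture, and TTR was below the floor in both. SERPINA1 had 543 in spheroid and 64.6 in monolayer culture, and AFP 263 and 106, both below the floor in monolayer culture. FGB had 1179 in spheroid and 767 in monolayer culture, APOA1 145 and 112, and APOB 161 and 189. Of 5 fibroblast, 5 endothelial and 3 measured leukocyte markers, 2, 1 and 1 were above the floor in spheroid culture. In monolayer culture these numbers were 2, 1 and 2. Signals in spheroid and monolayer culture were 618 and 852 for COL1A1, 132 and 209 for DCN, and 475 and 270 for PECAM1. They were 144 and 140 for CD3E, and 111 (below the floor) and 437 for CD14. The rest, COL1A2, COL3A1, LUM, CDH5, VWF, KDR, TEK and PTPRC, were below the floor in both. The signal at the 3' end of ACTB over that at its 5' end, a measure of RNA integrity, was 1.99 in spheroid and 1.55 in monolayer culture, and that of GAPDH 1.15 in spheroid and 1.09 in monolayer culture. The part of these differences in the values below was not tested.

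Most glycolysis and hypoxia response genes had similar signals in both cultures, and 7 of 40 were past 2-fold. ALDOC, PFKFB4 and EGLN3 passed 2-fold on the higher side in spheroid culture, 3 of 40 members or 7.5%, against 6.86% of the 13229 genes above the floor. PFKFB3, ADM, PFKP and PDK1 were at least 2-fold lower, 4 of 40 or 10%, against 5.5% of all genes. At 3-fold, ALDOC alone was higher (2.5%, against 2.34%), and PFKFB3, ADM and PFKP were lower (7.5%, against 2.11%). The shares of higher members lie close to those of all genes, and the lower shares rest on 4 and 3 genes. The median log2 ratio of spheroid over monolayer was -0.06 over the 40 members and 0.04 over all genes above the floor. It was -0.16 for the 23 glycolysis genes measured and -0.03 for the 17 hypoxia response genes. These medians turned positive when the arrays were scaled to reference genes (0.06 and 0.20), a setting that also raised the median of all genes to 0.26. Relative to all genes, the glycolysis median was -0.20 under both, as it must be, since that scaling shifts every log2 ratio alike. It was 0.12 with probe sets named _s_at or _x_at, which may read more than 1 transcript or gene, left out. Only 23 of the 40 members then had a value, so that median covers fewer glycolysis genes. SLC2A1, GPI, PFKFB3, GAPDH and LDHA were among those without one. TPI1 was then read from another probe set (log2 ratio 0.64, against -0.58).

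**Figure D1:**
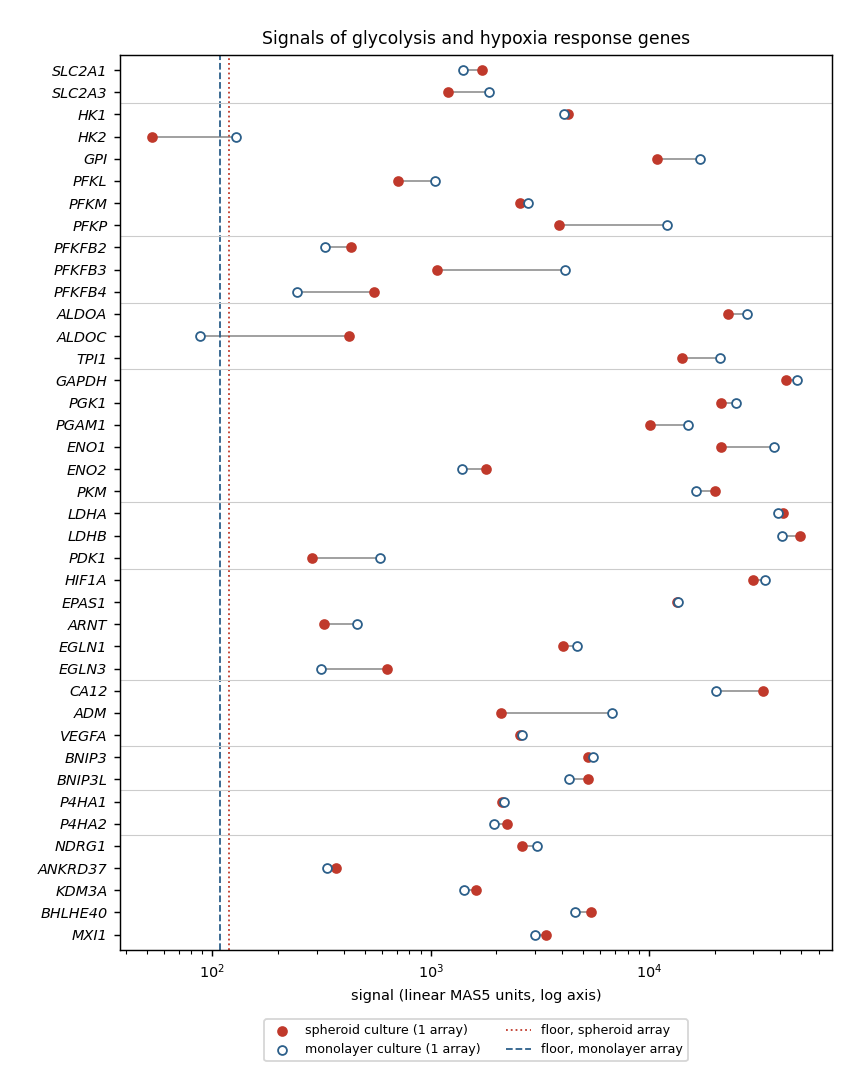
Signal in spheroid culture (filled red points) and monolayer culture (open blue points) of each of the 40 genes, 1 array each, on a log axis in signal units, in the order of the pathway, and vertical lines at the floors of 119 and 108. Only points on the same row can be compared, since probe sets differ in brightness; ALDOC and HK2 are the rows with 1 culture left of its floor.

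HIF binds a core of 5 bases, ACGTG or GCGTG, read on either strand, so that it also appears as CACGT or CACGC. RefSeq promoter windows of GRCh38.p14, 250 bases before to 50 after a transcript start, were found for 37 of the 43 genes, and 33 of these (89.2%) held the core in at least 1 window, against 52.4% of all genes in the table, with 1.81 windows per member and 1.29 per gene. Of their 67 windows 67.2% held it, against 48.4% of all 35116 windows, and their median GC content was 68%, against 58.7%. The part of GC content and of the number of windows in these differences was not tested, and a match is a description, not a bound site. Of the 7 genes past 2-fold, EGLN3 alone lacked the core in its window. The window with the most matches is shown for the PFKFB pair, which went apart, and for ALDOC and ADM, of which 1 was higher and 1 lower, in the gene's own direction with the core in capitals.

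PFKFB4, chr3:48556754-48557053, minus strand: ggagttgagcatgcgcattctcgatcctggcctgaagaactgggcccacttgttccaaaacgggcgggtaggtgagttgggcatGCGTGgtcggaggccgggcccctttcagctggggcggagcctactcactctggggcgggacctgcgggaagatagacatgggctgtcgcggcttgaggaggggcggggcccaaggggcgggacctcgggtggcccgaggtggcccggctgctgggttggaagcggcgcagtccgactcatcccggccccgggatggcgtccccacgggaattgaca

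PFKFB3, chr10:6202682-6202981, plus strand: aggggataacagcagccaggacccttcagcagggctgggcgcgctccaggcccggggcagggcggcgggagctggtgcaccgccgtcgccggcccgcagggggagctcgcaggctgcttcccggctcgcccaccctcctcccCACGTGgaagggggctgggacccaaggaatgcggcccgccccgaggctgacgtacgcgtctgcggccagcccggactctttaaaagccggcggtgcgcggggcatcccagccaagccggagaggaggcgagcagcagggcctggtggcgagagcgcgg

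ALDOC, chr17:28576846-28577145, minus strand: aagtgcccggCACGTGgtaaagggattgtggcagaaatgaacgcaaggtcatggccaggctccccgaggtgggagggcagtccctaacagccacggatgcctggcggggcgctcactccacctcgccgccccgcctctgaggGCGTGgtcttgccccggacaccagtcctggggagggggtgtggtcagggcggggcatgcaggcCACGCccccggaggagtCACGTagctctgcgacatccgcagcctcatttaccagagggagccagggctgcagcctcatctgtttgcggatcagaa

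ADM, chr11:10304823-10305122, plus strand: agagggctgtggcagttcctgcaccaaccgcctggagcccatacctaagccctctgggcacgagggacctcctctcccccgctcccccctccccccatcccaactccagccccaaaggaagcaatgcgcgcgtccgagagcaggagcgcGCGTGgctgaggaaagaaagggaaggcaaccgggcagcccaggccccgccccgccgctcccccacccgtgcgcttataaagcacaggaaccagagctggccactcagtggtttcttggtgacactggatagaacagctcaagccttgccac

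ALDOC, at least 3.90-fold higher in spheroid culture, held 5 matches at 4 places, 1 of them the palindrome CACGTG that reads as the core on both strands. PFKFB3, 3.85-fold lower, held the same palindrome once. PFKFB4 (2.25-fold higher) and ADM (3.23-fold lower) held 1 match each. PDK1 held the core in 1 of 2 windows and PFKP in 2 of 4. The core was present in genes of both directions, but 33 of the 37 members with windows held it, so its presence could hardly separate them. The median log2 ratio was -0.08 over the 31 measured members with the core and -0.15 over the 4 with windows but without it.

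Glucose enters by facilitative transporters, and the 2 measured here went apart. SLC2A1 (GLUT1), the broadly used basal transporter, had a signal of 1720.2 in spheroid and 1404 in monolayer culture, 1.23-fold higher. SLC2A3 (GLUT3), a high-affinity transporter, had 1201 in spheroid and 1851 in monolayer culture, 1.54-fold lower. Its 3 probe sets were all lower, by 1.54-fold to 2.72-fold, so that its size depends on the probe set used. The log2 ratio of SLC2A1 stood 0.92 above that of SLC2A3, more than the spread of 0.50 between probe sets of 1 gene.

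Upper glycolysis spends ATP to make fructose bisphosphate. Of its 6 genes 5 had lower signals in spheroid culture, as had 6249 of the 13229 genes above the floor. PFKP alone was past 2-fold. HK2 and PFKM, among the 5, were within the probe set spread, and scaling to reference genes turned both positive (log2 0.12 and 0.10). PFKP, the platelet form of phosphofructokinase, had a signal of 3868 in spheroid and 12129 in monolayer culture, 3.14-fold lower. PFKL, the liver form, had 706 in spheroid and 1045 in monolayer culture, 1.48-fold lower, with its other probe set 1.95-fold lower. PFKM, the muscle form, had 2562 in spheroid and 2788 in monolayer culture, a log2 ratio of -0.12. The 3 genes of this enzyme thus differed in ratio, PFKM standing 1.53 above PFKP and PFKL 1.08 above PFKP on the log2 scale, while PFKM and PFKL differed by 0.44, and by up to 0.64 under the alternatives, on either side of the probe set spread. The second PFKP probe set was at the floor in both cultures (113 in spheroid, 73.1 in monolayer), and with the geometric mean of both the log2 ratio of PFKP was -0.51, PFKL stood 0.25 below it and PFKM stood 0.39 above it.

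GPI, the isomerase that follows hexokinase, had a signal of 10857 in spheroid and 17123 in monolayer culture, 1.58-fold lower on its only probe set. HK1, the widely expressed hexokinase, was alike with 4270 in spheroid and 4089 in monolayer culture. HK2, the inducible hexokinase and a known HIF target, was close to the floor, with 53.2 in spheroid and 128 in monolayer culture, at least 1.07-fold lower. The median log2 ratio of upper glycolysis was -0.34 and stayed below 0 under all 8 alternatives, from -0.61 to -0.10. The -0.10 came from leaving out _s_at and _x_at probe sets, where HK1, HK2 and PFKP alone had a value. The median was then that of HK2, at the floor in spheroid culture.

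The bifunctional PFKFB enzymes set the level of fructose 2,6-bisphosphate, the main activator of phosphofructokinase, and 2 of their genes lay past 2-fold in opposite directions. PFKFB3, an isoform with high kinase activity, had a signal of 1069 in spheroid and 4120.5 in monolayer culture, 3.85-fold lower on its only probe set. PFKFB4 had 552 in spheroid and 245 in monolayer culture, 2.25-fold higher, with its other probe set at the floor in both. PFKFB2, the isoform first known from heart, had 432 in spheroid and 328 in monolayer culture, 1.32-fold higher. The log2 ratio of PFKFB4 stood 3.12 above that of PFKFB3 and that of PFKFB2 stood 2.35 above it, and under the alternatives that gave both values these gaps stayed at or above 2.16 and 2.26. In all, 14 isoform pairs were compared, and they were chosen after the values were seen. Of these, 9 differed by more than the probe set spread of 0.50 and 5 by less. How often 2 unrelated genes differ by as much was not computed. Single-gene log2 ratios had a robust SD of 0.53 over the 11528 genes above the floor on both arrays. Averaging both of its probe sets, or setting the floor at the array's upper quartile, gave PFKFB4 a log2 ratio of 0.21. Both PFKFB3 and PFKFB4 are known HIF targets, and both hold the HIF core in the windows printed.

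Aldolases split the bisphosphate, and their genes also went apart. ALDOC, the aldolase best known from brain, had a signal of 422 in spheroid culture and 87.9 in monolayer culture, below the floor there, and was at least 3.90-fold higher on its only probe set. ALDOA, the main aldolase of most cells, had 22960 in spheroid and 28134 in monolayer culture, 1.23-fold lower, with all 3 probe sets lower. The log2 ratio of ALDOC stood at least 2.26 above that of ALDOA. TPI1, which interconverts the triose phosphates, had 14253 in spheroid and 21278 in monolayer culture, 1.49-fold lower, and of its other 2 probe sets 1 was 1.51-fold lower and 1 was 1.56-fold higher.

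Lower glycolysis, which yields ATP and pyruvate, held no gene past 2-fold. ENO1, the common enolase, had a signal of 21469 in spheroid and 37399 in monolayer culture, 1.74-fold lower, and 3 of its 4 probe sets were lower. ENO2, the neuronal enolase and a HIF target, had 1797 in spheroid and 1386 in monolayer culture, 1.30-fold higher, so its log2 ratio stood 1.18 above that of ENO1. PGAM1, the mutase before enolase, had 10158.5 in spheroid and 15060 in monolayer culture, 1.48-fold lower on 1 probe set.

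GAPDH, often taken as a loading control, had signals of 42404.5 in spheroid and 47538 in monolayer culture, a log2 ratio of -0.16. Its 3 probe sets gave -0.16 to -0.14, and the array's 3 GAPDH control probe sets, which were not used for the gene, gave -0.27 to -0.19. PGK1, a kinase that makes ATP, had 21382.5 in spheroid and 25185 in monolayer culture, a log2 ratio of -0.24, and of its 5 probe sets above the floor 4 were lower. PKM, the last step, had 20192 in spheroid and 16417 in monolayer culture, 1.23-fold higher, and its second probe set was 2.51-fold higher. Scaling to reference genes gave GAPDH 0.06, so its direction is not settled by these arrays.

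**Figure D2:**
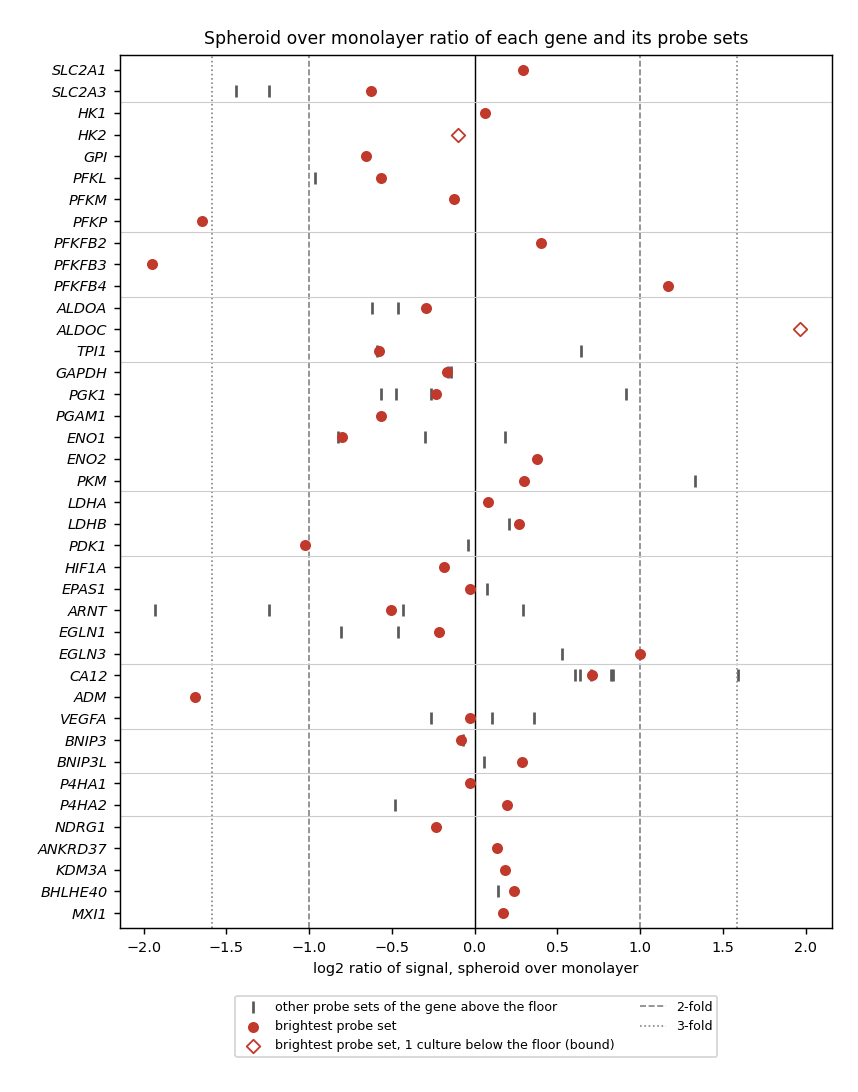
Difference in log2 signal, spheroid minus monolayer, of each of the 40 genes, with red points for the brightest probe set, open diamonds for a bound (HK2 and ALDOC) and grey ticks for the gene's other probe sets above the floor. Dashed and dotted lines mark 2-fold and 3-fold, and the 3 points right of the dashed line are PFKFB4, ALDOC and EGLN3, the last on the line itself.

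At the end of the path, the lactate dehydrogenase genes were alike in both cultures and PDK1 was lower in spheroid culture. LDHA, the chain that favours lactate and a classic HIF target, had a signal of 41350.1 in spheroid and 39051 in monolayer culture, a log2 ratio of 0.08. LDHB, the chain that favours pyruvate, had 49191 in spheroid and 40804.5 in monolayer culture, a log2 ratio of 0.27, which differed from that of LDHA by 0.19, within the probe set spread. PDK1, which blocks pyruvate dehydrogenase and is a HIF target, had 286 in spheroid and 583 in monolayer culture, 2.04-fold lower. Its second probe set, with 108 in spheroid culture, below the floor, and 122 in monolayer culture, was at least 1.03-fold lower. PDK1 was inside 2-fold under 3 alternatives, with log2 ratios of -0.25 to -0.80.

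Among the genes of HIF itself, EGLN3 was higher in spheroid culture, and the alpha subunits were alike. HIF1A, the first alpha subunit, had a signal of 29982 in spheroid and 34111 in monolayer culture, a log2 ratio of -0.19. EPAS1, which encodes HIF2 alpha, had 13388 in spheroid and 13633 in monolayer culture, a log2 ratio of -0.03. ARNT, their shared partner, had 324 in spheroid and 459 in monolayer culture, 1.42-fold lower. Of the 5 ARNT probe sets above the floor 4 were lower and 1 was higher, over a log2 range of -1.93 to 0.29. The -1.93 is a bound, since that probe set was below the floor in spheroid culture.

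EGLN3, a prolyl hydroxylase whose gene is itself a HIF target, had 632 in spheroid and 316 in monolayer culture, 2.00-fold higher, which is at the limit. Its other probe set was 1.44-fold higher. EGLN1, the main oxygen sensor of most cells, had 4043 in spheroid and 4685 in monolayer culture, a log2 ratio of -0.21, each of its 3 readable probe sets being lower, but with reference-gene scaling it was 0.01. The log2 ratio of EGLN3 stood 1.21 above that of EGLN1. EGLN3 fell short of 2-fold under 4 alternatives, with log2 ratios of 0.40 to 0.94.

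The best known HIF targets outside glycolysis had no common direction. ADM, which encodes the vasodilator peptide adrenomedullin, had a signal of 2095 in spheroid and 6757 in monolayer culture, 3.23-fold lower on its only probe set. CA12, a membrane carbonic anhydrase that handles acid at the cell surface, had 33240 in spheroid and 20344 in monolayer culture, 1.63-fold higher. All 7 CA12 probe sets were higher, by 1.52-fold to at least 3.01-fold, the last being below the floor in monolayer culture. VEGFA, the angiogenic growth factor, had 2574 in spheroid and 2628 in monolayer culture, a log2 ratio of -0.03, with 2 probe sets higher and 2 lower. These 3 genes thus held 1 lower, 1 higher and 1 alike.

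The remaining 9 targets were all within the probe set spread of 0.50. The mitophagy receptors BNIP3 (5241 in spheroid and 5543 in monolayer culture) and BNIP3L (5242 in spheroid and 4302 in monolayer culture) had log2 ratios of -0.08 and 0.29. P4HA1 and P4HA2, the alpha subunits of collagen prolyl hydroxylase, had 2119 and 2238 in spheroid culture, against 2160 and 1954.5 in monolayer culture. NDRG1, a stress-responsive gene, had 2615 in spheroid and 3068 in monolayer culture, a log2 ratio of -0.23. ANKRD37, KDM3A, BHLHE40 and MXI1, a small ankyrin protein, a histone demethylase, a transcriptional repressor and a MYC antagonist, had log2 ratios of 0.13 to 0.24, with signals of 368, 1612, 5414 and 3375 in spheroid culture, against 335, 1422, 4585 and 3001 in monolayer culture. The median log2 ratio of these 4 and NDRG1 was 0.17. Of the 40 members, 25 were within the spread, 4 were higher past it (10%, against 20.2% of all genes above the floor) and 11 were lower past it (27.5%, against 16.9%). Scaling to reference genes turned this balance, to 9 higher (22.5%, against 32.4% of all genes) and 5 lower (12.5%, against 10.04%). Without _s_at and _x_at probe sets 4 of 23 members were higher and 4 lower (17.4% each, against 21.6% and 15.9% of all genes).

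The other genes of these pathways were read from 5 further lists with 109 measured genes, of which 91 were above the floor. At 2-fold, 12 of them were higher in spheroid culture (13.2%, against 6.86% of all genes) and 7 were lower (7.69%, against 5.5%). Of 17 other glycolysis genes above the floor, 3 were at least 2-fold higher (17.6%, against 6.86% of all genes) and 0 lower. The median log2 ratio of the 17 was 0.44. All 3 were transporters of the same family as SLC2A1. SLC2A6 (GLUT6) had 880.4 in spheroid and 218 in monolayer culture, 4.03-fold higher. SLC2A13, a proton-coupled myo-inositol transporter, had 1844 in spheroid and 510 in monolayer culture, 3.62-fold higher. SLC2A12 (GLUT12) had 252 in spheroid and 111 in monolayer culture, 2.26-fold higher. With no floor the count of higher genes in this list was 6 and with a floor at the upper quartile it was 1. Of all genes 13.2% and 4.7% were at least 2-fold higher in these settings.

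Of 11 genes of pyruvate entry into mitochondria, 1 was at least 2-fold higher (9.09%, against 6.86% of all genes). MPC1, a subunit of the pyruvate carrier, had 638 in spheroid and 313 in monolayer culture, 2.04-fold higher, and was inside 2-fold under 4 of 8 alternatives. Among 13 genes of gluconeogenesis and glycogen, 2 were past 2-fold higher and 2 lower (15.4% each, against 6.86% and 5.5% of all genes). Over the alternatives these counts ran from 1 to 3 and from 1 to 5. PYGB and PYGL, the brain and liver glycogen phosphorylases, went apart. PYGB had 6351 in spheroid and 2740.1 in monolayer culture (2.32-fold higher), and PYGL had 1693 in spheroid and 3539 in monolayer culture (2.09-fold lower). PPP1R3B, which targets a phosphatase to glycogen, had 399 in spheroid and 192 in monolayer culture (2.07-fold higher), and PCK2, the mitochondrial PEP carboxykinase, had 1334 in spheroid and 3681 in monolayer culture (2.76-fold lower).

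Of 11 other HIF subunits and regulators, 1 was at least 2-fold higher (9.09%, against 6.86% of all genes) and the rest were within 2-fold. CITED2, a HIF target that competes for the coactivator of HIF, had 1739 in spheroid and 732 in monolayer culture, 2.38-fold higher. With the geometric mean over the probe sets 0 genes of that list were past 2-fold. Of 39 other known HIF targets above the floor, 5 were past 2-fold on the higher side and 5 on the lower side (12.8% each). Of all genes these shares were 6.86% and 5.5%. The counts ran from 4 to 7 and from 3 to 9 over the alternatives, and the median log2 ratio of these targets was 0.12. TMEM45A, a membrane protein, ANG, which encodes angiogenin, and STC1, which encodes stanniocalcin, were 4.51-fold, 4.15-fold and 3.91-fold higher. GPRC5A, a receptor abundant in lung epithelium, LOXL2, a lysyl oxidase of the matrix, and STC2, the second stanniocalcin, were 3.37-fold, 3.28-fold and 2.73-fold lower. STC1 had 3549 in spheroid and 907 in monolayer culture, and STC2 had 644 in spheroid and 1757 in monolayer culture, so this pair also went apart. HILPDA, ERO1A and ANGPTL4, also HIF targets, had log2 ratios of -0.11, -0.03 and 0.12, and were picked here after their values were seen. Of 15 reference genes above the floor, 6 were higher (40%, against 52.8% of all genes) and 9 lower, with a median log2 ratio of -0.26. These 15 set the scaling to reference genes. TFRC, 1.91-fold lower, was among them and also among the other known HIF targets.

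**Figure D3:**
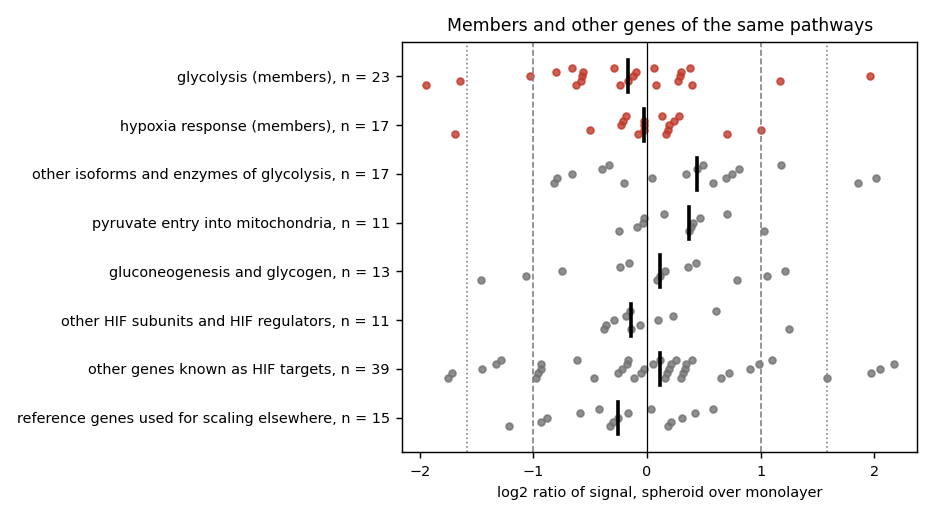
Log2 ratio of spheroid over monolayer signal by list, without genes at the floor in both cultures, each point being 1 gene and each black bar the list's median, with the members in red. Dashed and dotted lines mark 2-fold and 3-fold; the medians of the 2 red rows are -0.16 and -0.03, and the other glycolysis genes lie highest with 0.44.

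Of the 40 members, 24 kept their direction under each of the 8 processing alternatives in which they had a value. Of these, 12 were higher and 12 lower in spheroid culture, and the same count was not made over all genes. For genes well above the floor with 1 probe set, the other floors left the ratio as it was. Division by the array median and scaling to reference genes shift every ratio alike. For such genes a kept direction thus mainly means a ratio larger than that shift. The 12 lower genes were SLC2A3, GPI, PFKL, PFKP, PFKFB3, ALDOA, PGAM1, ENO1, PDK1, ARNT, ADM and NDRG1. The 12 higher genes were SLC2A1, PFKFB2, PFKFB4, ALDOC, ENO2, PKM, LDHB, EGLN3, CA12, BNIP3L, BHLHE40 and MXI1. Among the higher genes only PFKFB4, ALDOC, EGLN3 and CA12 were past the probe set spread of 0.50. Among the lower genes ALDOA and NDRG1 were within it. Under 1 of the alternatives the log2 ratio was as small as -0.01 for NDRG1 and 0.03 for MXI1. ADM stayed past 2-fold under all 8, and PFKFB3 and ALDOC under the 7 in which each had a value. ADM and PFKFB3 each have 1 probe set, well above the floor. The other floors and choices of probe set could therefore not change their log2 ratios of -1.69 and -1.95, and only the scalings could. PFKFB3 has an _s_at probe set alone, and ALDOC was at the floor in both cultures when the floor was set at the upper quartile.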

How the data were processed

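RNA of A549 cells in spheroid and in monolayer culture, harvested at day 12, was hybridised by the authors to 1 Affymetrix U133 array each. The deposited intensities of 54675 probe sets are linear signals, made with MAS5 and GCOS according to the submitters' processing notes, with versions not given in the sources used here. The arrays had been scaled by the authors. The number of arrays limits the precision. Samples were grouped by title.

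The platform annotation gave 1 gene for 41097 probe sets, and its symbols were updated through Entrez identifiers in 41043. Those with several genes (1801) or no listed gene (11777) and the 62 control probe sets were not used to name genes. Signals below each array's median were raised to it. Counts were made at 2-fold and 3-fold. Every member was named, and of the other lists up to 3 genes per direction past 2-fold. The members and lists were chosen with earlier results of these data known. Scripts were first tested on simulated data. Alternatives were other floors, other scalings and other choices of probe set. Python 3.11.15, numpy 2.4.6, pandas 2.3.3 and matplotlib 3.10.9 were used.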

Additional observations from a re-analysis of the deposited data

How the results depend on the processing

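No paired analysis was possible because each culture has 1 array. With the floor at the 75th percentile 0 of 35 members were at least 2-fold or 3-fold higher in spheroid culture, against 3 and 1. Of all genes 4.7% and 1.28% were then higher, against 6.86% and 2.34%. When all probe sets of a gene were averaged (geometric mean) 1 member was at least 2-fold higher, and with scaling to reference genes 1 was at least 3-fold lower, against 3. Of all genes 6.29% and 1.56% were past these limits in these settings. The median log2 ratio of the PFKFB genes was -0.87 with the 75th percentile floor and -0.87 with the geometric mean, against 0.40, where PFKFB2 had no value and the other 2 genes remained. Without probe sets named _s_at or _x_at the median of aldolases and TPI1 was 1.30, against -0.29, since ALDOA had no value and TPI1 was read from another probe set (0.64, against -0.58). That of LDHA, LDHB and PDK1 was -1.03, against 0.08, since PDK1 alone had a value. The other pathway genes at least 2-fold lower numbered 12 with no floor and 11 after division by the array median, against 7. Of all genes 10.2% and 7.26% were then lower, against 5.5%. With no floor all 109 measured genes counted, against 91. Of 296 values of single members under the alternatives, 283 kept their side of 2-fold, 10 of PFKP, PFKFB4, PDK1 and EGLN3 fell inside it and 3 of SLC2A3 and HK2 passed it. HK2 had -1.27 with no floor. Dividing each array by its median moved the median log2 ratio of all genes above the floor to -0.10 and scaling to reference genes to 0.26, against 0.04.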
